A study of Homo sapiens with 4 samples.

Results

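The endoplasmic reticulum folding and unfolded protein response genes described here are 32 listed genes out of 64252 identifiers in the count table. They were listed by function, as stress sensors, folding chaperones, disulfide enzymes and members of endoplasmic reticulum-associated degradation (ERAD). The rule uses no measured value, but the list was drawn up with earlier results of these data known, so its counts are a description of these genes. All 32 symbols were found, each with 1 Ensembl identifier, and all 32 passed the filter on low counts. The libraries came from J.gamma1, an established derivative of the Jurkat leukemia line (T-ALL cells in the labels) that lacks phospholipase C gamma 1, a defect that both groups share. One group carried a control short hairpin RNA (shNC) and the other a hairpin against ELOVL5 (shELOVL5), an elongase of polyunsaturated fatty acids, with 2 libraries each. The labels name 1 hairpin against ELOVL5 and give neither its sequence nor the time after its delivery. All 4 count columns carry the tag D4, whose meaning is not stated. Whether replicates were grown separately is not stated, so that each p-value reflects the spread of these libraries, which may be technical.

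Secreted and membrane proteins fold inside the endoplasmic reticulum with the help of chaperones, lectins that read their sugar chains, and enzymes that form and rearrange disulfide bonds. When unfolded proteins accumulate, the sensors encoded by ERN1 (IRE1), EIF2AK3 (PERK) and ATF6 start the unfolded protein response, which raises folding capacity through the transcription factors XBP1 and ATF6 and slows translation through PERK. In T cells this machinery folds the T cell receptor and other surface proteins, and calreticulin also binds calcium in the lumen. IRE1 acts by splicing XBP1 mRNA, and ATF6 is activated by cleavage of its protein, so counts per gene measure neither event.

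Many of these genes are textbook targets of ATF6 and XBP1, which act with the factor NF-Y at the endoplasmic reticulum stress element (ERSE). The search covered RefSeq promoter windows on GRCh38.p14, 250 bases before to 50 bases after a start, on both strands. An ERSE was counted as CCAAT and CCACG with 9 bases between them, an ERSE-II as ATTGG and CCACG with 1 base between them, and the element bound by XBP1 (UPRE) as TGACGTGG. Of the 32 genes, 30 had a window. An ERSE lay in windows of 8 of these 30 genes (26.7%), against 25 of 27305 gene symbols in the whole promoter table (0.09%). Because the list holds textbook targets of factors that act at this element, that contrast describes the list and tests nothing. An ERSE-II lay in windows of another 3 genes, HERPUD1, HYOU1 and SDF2L1 of the 30, against 0.07% of all symbols, and a UPRE in that of HYOU1, where it overlaps an ERSE-II, against 0.93%. The 8 genes with an ERSE were CALR, CANX, CRELD2, ERO1B, HSP90B1, HSPA5, PDIA6 and XBP1. The stretches below are shown because they let the promoter of CALR, which fell, be read beside those of HSP90B1 and PDIA6, which rose, and of HSPA5 and XBP1, which did not pass the test. Each is printed 5′ to 3′ on the strand of its gene, with the fixed letters of the element in capitals. CGTGG followed by ATTGG marks an ERSE that faces the other way. The ERSE-II of HERPUD1, ATTGG followed by CCACG, faces as its gene does.

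CALR (chr19:12938379-12938407, + strand): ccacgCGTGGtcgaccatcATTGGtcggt
HSP90B1, first copy (chr12:103930211-103930239, + strand): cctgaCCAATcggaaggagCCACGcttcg
HSP90B1, second copy (chr12:103930316-103930344, + strand): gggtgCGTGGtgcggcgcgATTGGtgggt
PDIA6 (chr2:10812848-10812876, - strand): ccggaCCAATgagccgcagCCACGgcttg
HSPA5 (chr9:125241386-125241414, - strand): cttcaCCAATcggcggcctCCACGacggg
XBP1 (chr22:28800598-28800626, - strand): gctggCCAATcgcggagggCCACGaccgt
HERPUD1, ERSE-II (chr16:56932016-56932044, + strand): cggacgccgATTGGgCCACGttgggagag

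The 11 genes with an ERSE or ERSE-II did not share a direction. HSP90B1 and PDIA6 rose, CALR and HERPUD1 fell, and 7 did not pass, with a median log2 fold change of 0.07 (range -0.65 to 0.23). Of the 19 matched genes with neither element, 4 rose, 3 fell and 12 did not pass, with a median of 0.10. Of all genes tested, 9.22% rose and 11.2% fell. HERPUD1, whose promoter also held TGATG and AA with 1 base between them, the letters of an ATF4-type element (in 4.46% of all symbols), was the single gene of the 30 with that match. A match describes letters in a window and does not show that a factor was bound. Elements with a changed letter, or outside these windows, were not counted, so a gene with neither match may still carry one.

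The knockdown held in both libraries: ELOVL5 had 5816 and 5664 counts in shNC and 1255 and 1157 in shELOVL5. Total counts per library lay between 16254002 and 17338719. Of the 17461 genes tested with edgeR's quasi-likelihood test, 20.4% passed an adjusted p of 0.05, 9.22% as higher and 11.2% as lower in shELOVL5. All 13 markers of T cells and T-ALL had counts, although CD2 reached only 3.20 and 2.06 CPM (the count scaled to library size by TMM), and their summed level was 2160 and 2161 CPM in shNC and 2022 and 2031 in shELOVL5. Of these 13, 6 fell and 2 rose: TAL1 (-0.68), TRBC2 (-0.38), CD247 (-0.28), CD3D (-0.26), ZAP70 (-0.18) and LCK (-0.17) had lower levels, and CD3E (0.32) and CD3G (0.25) higher ones, each value a log2 fold change. Replicates of TRBC1, which did not pass, stood far apart, at 63.2 and 37.7 CPM in shNC and 25.8 and 75.9 in shELOVL5. Markers of other cells were low: all 9 myeloid markers had means under 1 CPM in both groups and 4 were at 0, with sums of 1.00 and 1.68 CPM in shNC and 1.60 and 1.15 in shELOVL5. Of 9 epithelial and fibroblast markers 5 were at 0 (sums 13.1 and 12.6 against 13.2 and 13.9 CPM), and of 8 erythroid markers 4 were at 0 (sums 12.7 and 12.3 against 8.64 and 11.2 CPM). Most of the erythroid sum was EPOR, with means of 10.3 CPM in shNC and 9.15 in shELOVL5, above those of CD2. KLF1, near the floor, was called lower, from 18 and 18 counts to 4 and 4 (log2 fold change -2.18, adjusted p = 0.0499). Of 10 B and plasma cell markers 7 had means under 1 CPM and 1 was at 0, but their sum was 52.6 and 44.2 CPM in shNC and 34.5 and 30.6 in shELOVL5, mostly from CD79A (40.4 to 25.7 CPM). CD79A was called lower (log2 fold change -0.65, adjusted p = 0.00267). Mitochondrial transcripts made up 2.62% and 2.61% of counts in shNC and 3.30% and 3.11% in shELOVL5. The part of these shifts in the results below was not tested. In bulk RNA, fewer cells of a type and less RNA per cell cannot be told apart.

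Of the 32 genes, 7 rose (ATF6, HSP90B1, DNAJB11, DNAJC3, PDIA6, SYVN1 and DERL1) and 6 fell (CALR, PDIA3, ERO1A, HERPUD1, EDEM1 and EDEM2). The other 19 did not pass. That is 21.9% higher and 18.8% lower, against 9.22% and 11.2% of all genes tested. The median log2 fold change was 0.09, against 0.006 over all genes tested. In size, regardless of sign, the median was 0.20 against 0.24 over all genes tested, and 23 of the 32 (71.9%) lay within 0.25 of 0, against 8992 of 17461 (51.5%). For 26 of the 32 genes every shELOVL5 library lay on one side of both controls, 16 above and 10 below. Over all genes tested that held for 60.1%, 30% above and 30.1% below. These shares over all genes were not matched for level. Of the 32 genes only CRELD1, DNAJB9 and ERO1B averaged under 20 CPM, while 8860 of the 17461 genes tested averaged 20 CPM or more. Calls, the spread of fold changes and overlap all depend on level, and its part in these differences was not tested. ATF6, CALR, ERO1A and EDEM2 kept their call in all 14 alternative analyses, and PDIA6 in all but the test against a 1.2-fold change. Without shELOVL5 replicate 1, 2 genes rose and 3 fell, and without shELOVL5 replicate 2, 3 rose and 5 fell. DESeq2 called 4 higher and 5 lower.

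**Figure D1:**
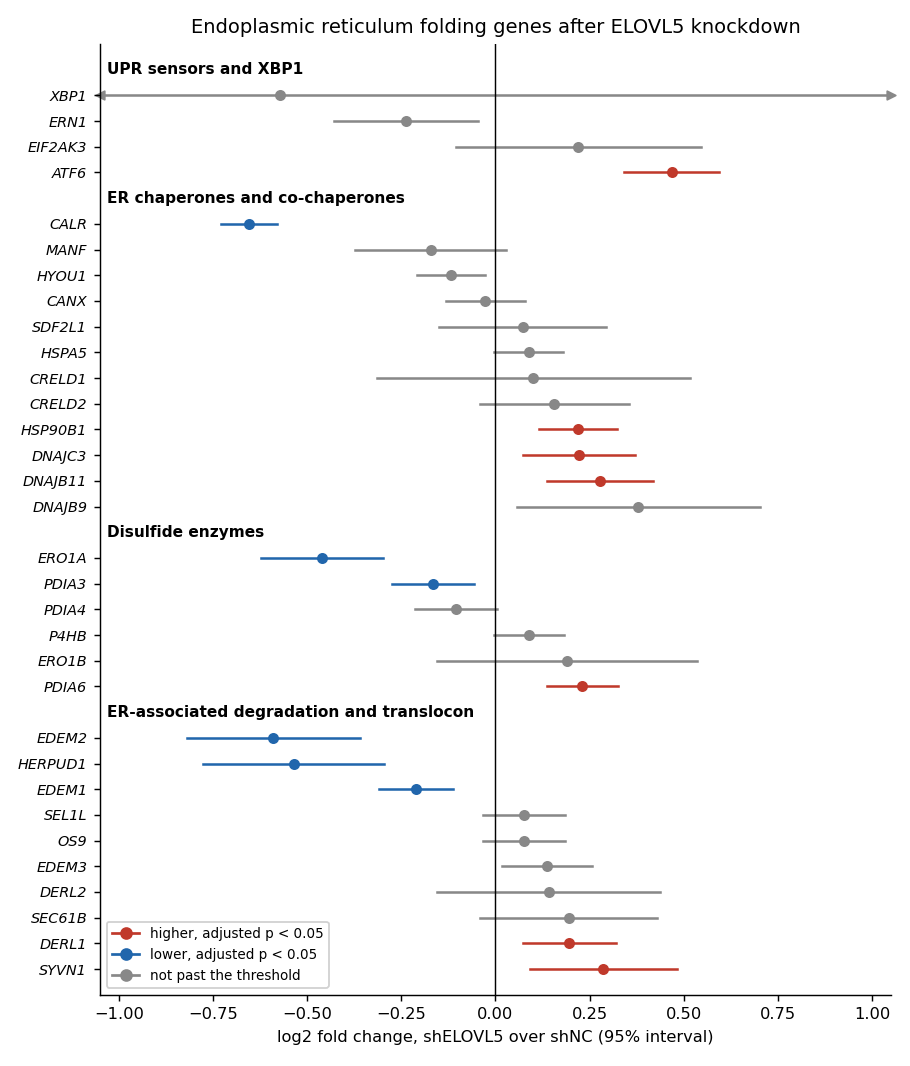
Log2 fold change (shELOVL5 over shNC, horizontal axis) of the 32 genes by function, with points for the edgeR estimate and lines for its 95% interval, from 2 libraries per group. Red and blue mark genes past an adjusted p of 0.05 as higher or lower and grey the rest: 7 are red and 6 blue, CALR lies lowest at -0.65 and ATF6 highest at 0.47, and the interval of XBP1 runs past both ends of the axis.

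Of the 3 sensor genes, ATF6 passed the test and ERN1 and EIF2AK3 did not. ATF6 (ENSG00000118217, GRCh38 chromosome 1, 161766294 to 161964070), the gene of the membrane-bound transcription factor that is cut in the Golgi, rose, with 103.4 and 102.9 CPM in shNC and 139 and 147 CPM in shELOVL5. Both shELOVL5 libraries lay well above the controls (log2 fold change 0.47, SE 0.06, adjusted p = 0.000264). ERN1, the gene of the kinase and nuclease IRE1, had 56.8 and 57.8 CPM in shNC and 46.6 and 50.6 CPM in shELOVL5. The groups did not overlap, but its log2 fold change of -0.24 (95% interval -0.43 to -0.05) did not pass (adjusted p = 0.0788). Within a library, the count ratio of ATF6 to ERN1 was 1.82 and 1.78 in shNC and 2.97 and 2.90 in shELOVL5, a ratio that scaling cannot alter. EIF2AK3, the gene of the kinase PERK, had 28.96 and 28.04 CPM in shNC and 28.04 and 38.37 CPM in shELOVL5. Its libraries overlapped, and its log2 fold change of 0.22 (95% interval -0.11 to 0.54) did not pass (adjusted p = 0.341). That interval holds the estimate of ATF6, and the value was 0.42 without shELOVL5 replicate 1 and -0.02 without shELOVL5 replicate 2. The count ratio of ATF6 to EIF2AK3 was 3.57 and 3.67 in shNC and 4.94 and 3.83 in shELOVL5, and a difference between the sensors' fold changes was not tested. An antisense transcript with 16 to 27 counts per library shares 14.4% of the exon bases of EIF2AK3, and no source here says whether the counting used strand.

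XBP1 (ENSG00000100219, GRCh38 chromosome 22, 28794555 to 28800597), the transcription factor gene downstream of IRE1, could not be placed, because its control libraries stood far apart. It had 866 and 225 counts in shNC, or 51.0 and 14.0 CPM, and 393 and 353 counts in shELOVL5, or 22.5 and 21.4 CPM. Both shELOVL5 libraries lay between the 2 controls. The fold between the shNC libraries was 3.64, against a median of 1.06 and a 95th percentile of 1.24 over the 8860 tested genes averaging 20 CPM or more, and 7 of these genes, XBP1 among them, differed at least that much. For the other 31 listed genes the largest fold between shNC libraries was 1.21, for SEC61B. The log2 fold change of XBP1 was -0.57 with an SE of 0.86 (adjusted p = 0.743). Without shNC replicate 1 it was 0.64 (adjusted p = 0.0297) and without shNC replicate 2 it was -1.22 (adjusted p = 6.18e-05), so that a direction for XBP1 depends on which control is kept. Total counts per gene do not separate spliced from unspliced XBP1 mRNA.

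**Figure D2:**
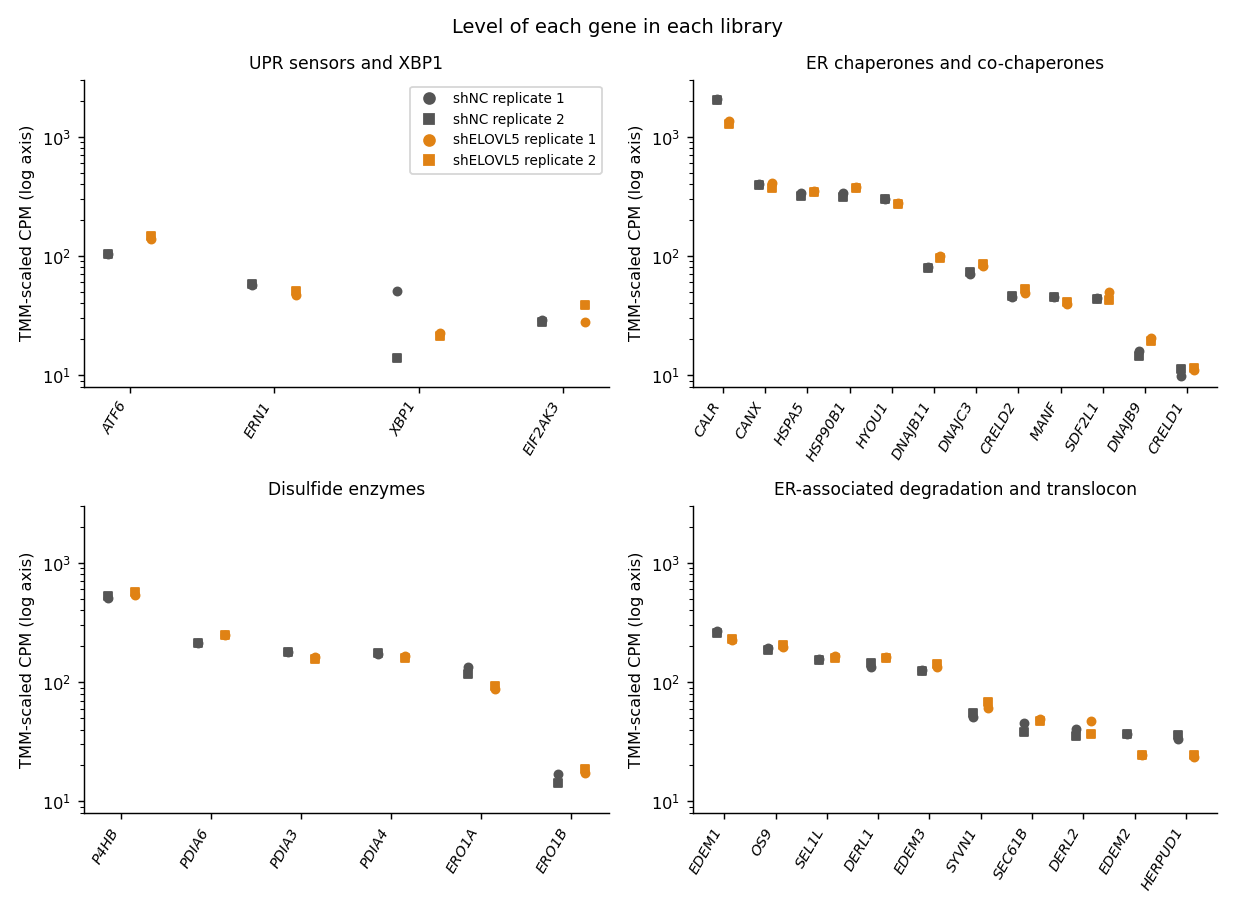
Level of each gene in each library (TMM-scaled CPM, log axis) in 4 panels by function, with grey for shNC, orange for shELOVL5, circles for replicate 1 and squares for replicate 2. Replicates nearly coincide for most genes, CALR stands above the other chaperone genes in both groups, and the 2 shNC points of XBP1 lie at 51.0 and 14.0 CPM on either side of its shELOVL5 points.

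Among the 12 chaperone and co-chaperone genes, 3 rose (25.0%) and CALR fell (8.33%), with a median log2 fold change of 0.09. Of all genes tested, 9.22% rose and 11.2% fell. CALR (ENSG00000179218, GRCh38 chromosome 19, 12938578 to 12944489) encodes calreticulin, the soluble lectin that holds glycoproteins with a trimmed sugar and stores calcium. It had 2084 and 2039 CPM in shNC and 1340 and 1280 CPM in shELOVL5, so that both knockdown libraries lay far below both controls. This is a fall of 0.65 on the log2 scale (SE 0.03, adjusted p = 8.58e-07), or -36.5%. Scaled by exon length, CALR was the most abundant of the 32 genes in both groups, at 759 CPM per kb in shNC and 483 in shELOVL5, followed by P4HB at 98.3 and 105. Of the summed CPM of the 32 genes, CALR made up 33.0% in each control library and 23.7% and 22.9% in shELOVL5. The summed level of the 12 chaperone genes was 3765 and 3672 CPM in shNC and 3104 and 2989 in shELOVL5, while that of the 11 others without CALR was 1681 and 1634 against 1764 and 1710 CPM. An antisense transcript overlaps 9.9% of the exon bases of CALR, with 315 and 278 counts in shNC and 213 and 130 in shELOVL5, against 35396 and 32717 and 23418 and 21144 counts for CALR.

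CANX, the gene of calnexin, the membrane-bound partner lectin of calreticulin, did not pass the test. It had 401 and 390 CPM in shNC and 405 and 371 CPM in shELOVL5, and the groups overlapped (log2 fold change -0.03, 95% interval -0.13 to 0.08, adjusted p = 0.754). The count ratio of CALR to CANX was 5.198 and 5.229 in shNC and 3.31 and 3.446 in shELOVL5, with no overlap. Both genes carry an ERSE, and the 2 intervals of their fold changes do not meet. With 2 libraries per group the smallest p of an exact permutation test of such a ratio is 0.333, and none was run.

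HSPA5, the gene of BiP, the central Hsp70 chaperone and the usual readout of the unfolded protein response, had 334 and 321 CPM in shNC and 350 and 345 CPM in shELOVL5. Its groups did not overlap, but its log2 fold change of 0.09 (95% interval -0.003 to 0.18) did not pass (adjusted p = 0.167). HSP90B1, which encodes GRP94, the Hsp90 of this compartment, rose from 336 and 310 CPM to 380 and 372 CPM (log2 fold change 0.22, SE 0.05, adjusted p = 0.00801). That call ended without shELOVL5 replicate 1 (adjusted p = 0.0891) and with no low-count filter (adjusted p = 0.0502). HYOU1, the gene of the nucleotide exchange factor GRP170, which resets BiP, had 298 and 300 CPM in shNC and 278 and 274 CPM in shELOVL5 and did not pass (log2 fold change -0.12, 95% interval -0.21 to -0.03, adjusted p = 0.0698). All 3 genes had log2 fold changes within 0.25 of 0, and in none of them did the groups overlap. Groups did not overlap for 60.1% of all genes tested either.

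The J-domain co-chaperones, which deliver clients to BiP and stimulate its ATPase, are represented here by 3 genes, of which DNAJB11 and DNAJC3 rose. DNAJB11, which encodes ERdj3, rose from 81.3 and 79.2 CPM to 99.3 and 95.1 CPM (log2 fold change 0.28, SE 0.06, adjusted p = 0.0118). DNAJC3, the gene of a J-domain protein also known as an inhibitor of PERK-like kinases, rose from 70.7 and 72.6 CPM to 82.4 and 84.7 CPM (log2 fold change 0.22, SE 0.07, adjusted p = 0.0414). DNAJB9, which encodes ERdj4, a repressor of IRE1, had 16.0 and 14.6 CPM in shNC and 20.4 and 19.3 CPM in shELOVL5 and did not pass (log2 fold change 0.38, 95% interval 0.06 to 0.70, adjusted p = 0.0953). None of the 3 overlapped between groups, which also held for 60.1% of all genes tested. The DNAJB11 call ended without shNC replicate 2 or either shELOVL5 library (adjusted p = 0.0504 to 0.116). The DNAJC3 call ended without any 1 of the 4 libraries (adjusted p = 0.0823 to 0.214), by DESeq2 (adjusted p = 0.109), with no low-count filter (adjusted p = 0.0782) and with robust=FALSE (adjusted p = 0.0529). Exons of THAP5, with 926 to 1442 counts per library, overlap 6.5% of those of DNAJB9, which had 234 to 357, on the other strand.

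The small stress-induced genes of this group did not pass. SDF2L1, which keeps BiP and its J-domain partner in a complex, had 44.6 and 43.1 CPM in shNC and 49.6 and 42.6 CPM in shELOVL5, with overlap (log2 fold change 0.07, adjusted p = 0.681). MANF, a secreted neurotrophic factor gene induced by calcium depletion, had 45.5 and 45.4 CPM in shNC and 39.3 and 41.4 CPM in shELOVL5 (log2 fold change -0.17, 95% interval -0.37 to 0.03, adjusted p = 0.221). CRELD2, which encodes a stress-induced protein with disulfide exchange activity, had 44.8 and 46.4 CPM in shNC and 48.8 and 52.8 CPM in shELOVL5 (log2 fold change 0.16, adjusted p = 0.262). Its relative CRELD1, a membrane protein gene, was the least abundant of the 32 genes per length at 2.78 CPM per kb in shNC (log2 fold change 0.10, adjusted p = 0.771). The ratio of CRELD2 to CRELD1 counts overlapped between groups, at 4.56 and 4.16 in shNC and 4.42 and 4.62 in shELOVL5.

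Among the 6 disulfide genes, PDIA6 rose (16.7%) and PDIA3 and ERO1A fell (33.3%), against 9.22% and 11.2% of all genes tested. ERO1A (ENSG00000197930, GRCh38 chromosome 14, 52639916 to 52695900) encodes the oxidase that reoxidizes protein disulfide isomerase and passes electrons to oxygen. It had 133 and 117 CPM in shNC and 87.6 and 93.6 CPM in shELOVL5, with no overlap (log2 fold change -0.46, SE 0.07, adjusted p = 0.00142). ERO1B, the gene of the second oxidase of this family, was lower in level, at 17.1 and 14.4 CPM in shNC and 17.5 and 18.5 CPM in shELOVL5, and did not pass (log2 fold change 0.19, 95% interval -0.16 to 0.54, adjusted p = 0.452). The ratio of ERO1A to ERO1B counts was 7.75 and 8.10 in shNC and 5.02 and 5.06 in shELOVL5. The summed level of both oxidase genes was 150 and 131 CPM in shNC and 105 and 112 CPM in shELOVL5.

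Of the 4 isomerases, which form, break and reshuffle disulfide bonds, PDIA6 rose, PDIA3 fell and the others did not pass. PDIA6 (ENSG00000143870), which encodes the isomerase P5, a partner of BiP, rose from 211.5 and 212.2 CPM to 248 and 249 CPM (log2 fold change 0.23, SE 0.04, adjusted p = 0.00367). PDIA3, which encodes ERp57, the isomerase that works with calreticulin and calnexin on glycoproteins, fell from 180 and 179 CPM to 163 and 157 CPM (log2 fold change -0.17, SE 0.05, adjusted p = 0.0365). That call ended without any 1 of the 4 libraries (adjusted p = 0.067 to 0.222), by DESeq2 (adjusted p = 0.082), with total-count scaling (adjusted p = 0.0857), with no low-count filter (adjusted p = 0.072) and with robust=FALSE (adjusted p = 0.0513). P4HB, the gene of protein disulfide isomerase itself and the second most abundant of the 32 genes per length, had 510 and 532 CPM in shNC and 539 and 570 CPM in shELOVL5 (log2 fold change 0.09, 95% interval -0.003 to 0.18, adjusted p = 0.168). PDIA4, which encodes ERp72, had 171 and 176 CPM in shNC and 164 and 158 CPM in shELOVL5 (log2 fold change -0.11, adjusted p = 0.169). The sum of the 4 genes was 1073 and 1099 CPM in shNC and 1115 and 1134 in shELOVL5, 3.53% higher. PDIA6 shares 25.2% of its exon bases with ATP6V1C2 on the other strand, which had 39 to 118 counts per library against 3405 to 4335 for PDIA6.

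Among the 10 genes of ERAD and the translocon, 2 rose (SYVN1 and DERL1) and 3 fell (HERPUD1, EDEM1 and EDEM2). The median log2 fold change of the 10 genes was 0.11. The shares over all genes tested were 9.22% higher and 11.2% lower, not matched for level. ERAD picks out misfolded proteins by their trimmed sugars, draws them back through the membrane and marks them with ubiquitin for the proteasome. The EDEM genes encode mannosidases or mannosidase-like proteins of the first step. EDEM2 (ENSG00000088298, GRCh38 chromosome 20, 35115357 to 35147364), whose product starts the trimming, had 36.8 and 36.6 CPM in shNC and 24.4 and 24.3 CPM in shELOVL5, a fall of 0.59 on the log2 scale (SE 0.10, adjusted p = 0.00267). EDEM1 fell from 269 and 260 CPM to 225 and 232 CPM (log2 fold change -0.21, SE 0.04, adjusted p = 0.00765), a call that ended without shELOVL5 replicate 1 (adjusted p = 0.0731). EDEM3 had 126 and 124 CPM in shNC and 134 and 141 CPM in shELOVL5 and did not pass (log2 fold change 0.14, 95% interval 0.02 to 0.26, adjusted p = 0.108). In none of the 3 did the groups overlap, as in 60.1% of all genes tested. The count ratio of EDEM2 to EDEM3 was 0.293 and 0.294 in shNC and 0.182 and 0.173 in shELOVL5, and that of EDEM1 to EDEM3 was 2.14 and 2.09 against 1.68 and 1.65, both without overlap.

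Of the ligase and channel genes, SYVN1 and DERL1 rose and HERPUD1 fell. SYVN1, the gene of the ubiquitin ligase HRD1, rose from 50.6 and 55.2 CPM to 61.3 and 67.7 CPM (log2 fold change 0.29, SE 0.09, adjusted p = 0.043). DERL1, which encodes a membrane protein of the retrotranslocation channel, rose from 134 and 145 CPM to 162 and 158 CPM (log2 fold change 0.20, SE 0.06, adjusted p = 0.0312). Both calls ended without shNC replicate 1 or either shELOVL5 library (adjusted p = 0.0782 to 0.273 for SYVN1 and 0.107 to 0.205 for DERL1). They also ended by DESeq2, with no low-count filter and with robust=FALSE (adjusted p = 0.0662 to 0.116 for SYVN1 and 0.0513 to 0.103 for DERL1). SYVN1 also shares 7.2% of its exon bases with FAU on the same strand, which had 3678 to 4187 counts per library against 859 to 1119 for SYVN1, and 6.5% with MRPL49 on the other strand. HERPUD1 (ENSG00000051108, GRCh38 chromosome 16, 56932048 to 56944863), which encodes a membrane protein that recruits HRD1 and is induced by both the ATF6 and the ATF4 branch, fell. It had 33.6 and 36.02 CPM in shNC and 23.5 and 24.6 CPM in shELOVL5, a log2 fold change of -0.54 (SE 0.11, adjusted p = 0.00599) that did not pass without shELOVL5 replicate 1 (adjusted p = 0.059).

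The remaining 4 genes of this group did not pass. SEL1L, the adaptor that holds HRD1 in place, had 155 and 153 CPM in shNC and 165 and 160 CPM in shELOVL5 (log2 fold change 0.08, 95% interval -0.03 to 0.18, adjusted p = 0.331). OS9, a lectin that brings glycoproteins to that adaptor, had 195 and 186 CPM in shNC and 197 and 205 CPM in shELOVL5 (log2 fold change 0.08, adjusted p = 0.323). DERL2, the relative of DERL1, overlapped between groups, with 40.9 and 35.02 CPM in shNC and 46.9 and 36.7 CPM in shELOVL5 (log2 fold change 0.14, or -0.05 without shELOVL5 replicate 1, adjusted p = 0.518 with all libraries), as did the ratio of DERL1 to DERL2. SEC61B, the gene of the beta subunit of the channel through which new proteins enter, had 45.7 and 38.0 CPM in shNC and 48.8 and 47.0 CPM in shELOVL5 (log2 fold change 0.19, 95% interval -0.04 to 0.43, adjusted p = 0.236).

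**Figure D3:**
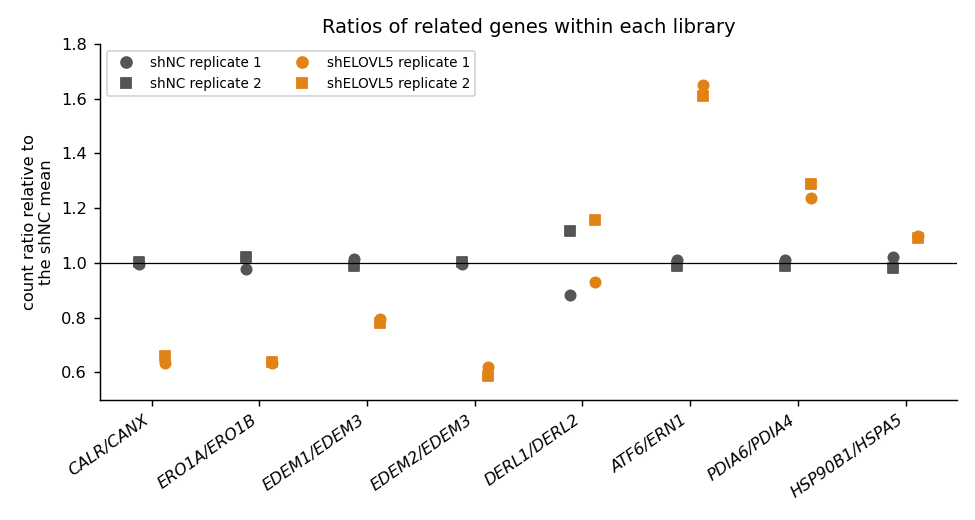
Count ratios of 8 pairs of related genes in each library, divided by the mean ratio of the shNC libraries (vertical axis, 1 is the shNC mean), with grey for shNC, orange for shELOVL5, circles for replicate 1 and squares for replicate 2. CALR/CANX, ERO1A/ERO1B and EDEM2/EDEM3 lie near 0.6 in both shELOVL5 libraries (0.65, 0.64 and 0.60 of the shNC mean), ATF6/ERN1 lies at 1.63, and DERL1/DERL2 overlaps between groups.

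The other 120 genes of the pathway, taken from 7 lists, were read beside these values. Of the 113 that were tested, 18 rose (15.9%) and 15 fell (13.3%), against 9.22% and 11.2% of all genes tested, with a median log2 fold change of 0.05. Here too the share over all genes was not matched for level. The PERK and ATF4 branch was the list with the lowest median, -0.93, and 8 of its 11 tested genes fell (72.7%) and none rose. ATF4, the transcription factor translated when PERK or a related kinase slows translation, fell from 505 ± 2.70 to 207 ± 2.41 CPM (SD, n = 2). Its targets TRIB3, a pseudokinase gene, ASNS, the asparagine synthetase gene, and VLDLR, a lipoprotein receptor gene, fell, with log2 fold changes of -1.82, -1.56 and -0.93. DDIT3, which encodes the stress factor CHOP and was picked after its values were seen, fell from 32.7 ± 6.15 to 17.5 ± 0.28 CPM (log2 fold change -0.90, adjusted p = 0.0015). All 5 calls held without any 1 library. The 3 tested genes of the branch that did not pass were ATF3, PPP1R15A and CEBPG. Their log2 fold changes were -0.09 (adjusted p = 0.480), -0.25 (adjusted p = 0.0782) and 0.11 (adjusted p = 0.311). The gene of PERK itself, EIF2AK3, did not pass, as given above. The summed level of all 12 listed genes of the branch was 1197 and 1206 CPM in shNC and 626 and 629 CPM in shELOVL5.

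The medians of the other 6 lists lay between 0.03 and 0.11. Their shares of calls stand beside 9.22% higher and 11.2% lower over all genes tested, not matched for level. Among 12 tested genes of signalling, 2 rose and 2 fell (16.7% each). MBTPS1, the gene of the site-1 protease that cuts ATF6, fell from 149 ± 4.25 to 95.9 ± 5.50 CPM (log2 fold change -0.63, adjusted p = 5.54e-05), while ATF6 rose. In that list PPP1R15B (-0.15), a phosphatase subunit gene that reverses PERK's effect, also fell, and the transcription factor gene CREB3L2 (0.48) and the calcium leak gene TMBIM6 (0.13) rose. Among 17 tested genes of the oligosaccharyltransferase and of glycan trimming, which attach and shorten the sugar that calreticulin reads, 3 rose (17.6%) and 2 fell (11.8%). OST4, a small subunit of that enzyme, fell from 42.6 ± 1.67 to 19.9 ± 0.70 CPM (log2 fold change -1.10, adjusted p = 5.99e-05), and LMAN1, the cargo lectin gene that carries glycoproteins to the Golgi, by 0.33 on the log2 scale. The subunits RPN1 (0.18) and RPN2 (0.19) rose.

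Of 25 other ERAD genes, 2 rose and 2 fell, 8% each, below the 9.22% and 11.2% of all genes tested. VCP, the ATPase that pulls proteins out of the membrane, fell by 0.19 and the conjugating enzyme gene UBE2G2 by 0.39 on the log2 scale, and UBE2J1 (0.22) and FAF2 (0.21) rose. The translocon, signal peptidase and TRAP list had 5 of 18 genes higher (27.8%) and none lower, with a median of 0.11, and SEC61A2 (0.52), SPCS2 (0.27), SPCS3 (0.19) and SRPRA (0.17) were those with the smallest p. Of 16 tested other disulfide isomerases and oxidases, TMX1 (0.18), TMX2 (0.25) and TMX4 (0.33) rose (18.8%) and TXNDC5 (-0.18) fell (6.25%). Of 14 tested other J-domain, prolyl isomerase and retrieval genes, DNAJC1 (0.41), FKBP2 (0.41) and FKBP14 (0.48) rose (21.4%) and none fell. The other 3 J-domain genes of that list, named after their values were seen, did not pass, with log2 fold changes of -0.50 for DNAJC25 (adjusted p = 0.0654), -0.05 for DNAJB12 and 0.06 for DNAJB14. Of the 28 called genes named outside the 32, the calls of MBTPS1, ATF4, TRIB3, ASNS, VLDLR, DDIT3, UBE2G2, VCP, OST4 and LMAN1 held without any 1 library. The other 18 ended without at least 1, in each case including shELOVL5 replicate 1.

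**Figure D4:**
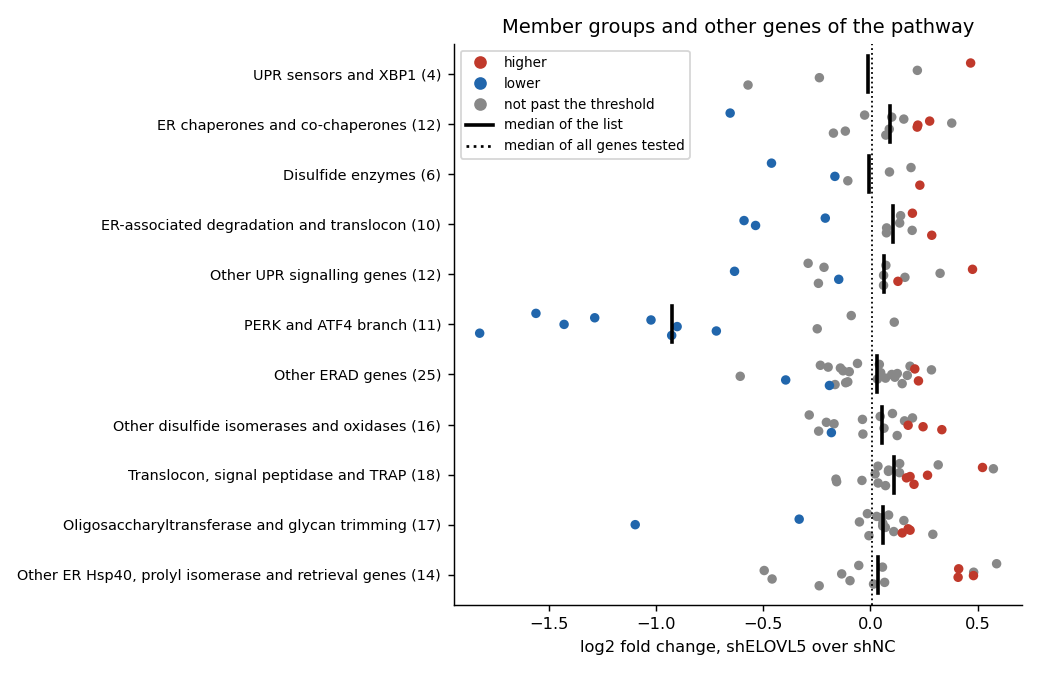
Log2 fold change (horizontal axis) of each tested gene in the 4 groups of the 32 genes and in 7 lists of other pathway genes, with the number tested in parentheses, a black bar at each list's median and a dotted line at the median of all genes tested (0.006). Red and blue mark genes past an adjusted p of 0.05: the PERK and ATF4 branch has its median at -0.93, and the medians of the other 10 lists lie between -0.01 and 0.11.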

How the data were processed

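RNA sequencing of 4 libraries (2 shNC, 2 shELOVL5) was used. The authors deposited raw counts of reads for each gene, as whole numbers. HISAT2 2.2.0, StringTie and hg38 were used, per the submitters' processing notes. No source here names the annotation release, the counting step or its strand setting, so values of overlapping genes are uncertain.

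Groups came from titles. edgeR 4.0.16 in R 4.3.3 was fitted to all libraries (filterByExpr with minimum count 10, TMM, glmQLFit with robust=TRUE, glmQLFTest, two-sided, group as the only term), with Benjamini-Hochberg adjustment over 17461 genes and a threshold of 0.05. SE and 95% intervals come from that test. Levels are TMM-scaled CPM. Levels per length use exon bases of GENCODE release 29, and symbols matched 40995 identifiers. Alternatives, 14 in all, were RLE or total-count scaling, other filters, DESeq2 1.42.0, limma-voom 3.58.1, a replicate block, glmTreat against 1.2-fold, robust=FALSE, genes with a symbol alone, and leaving out each library, where the lone sample is assumed to vary like the other group.

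The members, lists and motifs were chosen with earlier results of these data known. All 32 members are named, and up to 4 called genes with the smallest p per other list. Tested on simulated data for the shELOVL5 and shNC comparison with gene-wise dispersions (17046 genes), the fit recovered 26% of 1.25-fold and 62% of 1.5-fold changes, with 25 false calls among 155, and with trended dispersions 8 among 141. That simulation planted 50 changes of each size, far fewer than the 3562 genes called in the data, so its recovery may differ from that for the 32 genes. Protein sequences were not used here.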

Additional observations from a re-analysis of the deposited data

How the results depend on the processing

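Of the 32 genes, 7 were higher and 6 lower. The higher count was 3 with no low-count filter, 4 by DESeq2, 4 with robust=FALSE and 1 against a 1.2-fold change, and the lower count was 3 against a 1.2-fold change. Leaving out 1 library gave 2 to 5 higher and 3 to 6 lower, lowest without shELOVL5 replicate 1 in both cases. All 13 called genes kept their direction in all 14 alternatives. XBP1, not called, reversed to 0.64 without shNC replicate 1 and was -1.22 without shNC replicate 2, and EDEM3 passed with total-count scaling (adjusted p = 0.0491). Over all genes, 3562 passed (1610 higher, 1952 lower), 2243 with no low-count filter (899 higher), and 1049 against a 1.2-fold change (408 higher, 641 lower). Without 1 library the counts ran from 1872 to 2963 in all, 696 to 1347 higher and 1176 to 1616 lower, lowest without shELOVL5 replicate 1 (1973, 795 and 1178 without shELOVL5 replicate 2). With the replicate number as a block, 7 of the 32 genes were higher and 6 lower, and none of the 32 calls changed. Same-numbered libraries did not deviate together (correlation -0.015 across 17461 genes). Of 308 counts of groups and lists under alternatives, 86 moved by more than 1.5 times, 79 of them to fewer genes. At this depth and number of libraries the simulated fit, with far fewer changed genes than were called here, missed most changes of the smallest size. A gene that did not pass here is not shown to be unchanged.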
